A study of Hydra vulgaris with 12 samples.

Results

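Small RNA bound to Hywi, a PIWI protein of the freshwater polyp Hydra vulgaris, was compared between wild-type animals and animals that colchicine had depleted of interstitial cells. Each side was 1 immunoprecipitate (IP) of 225 whole animals, and these 2 libraries are among 12 samples of mRNA, small RNA and capless RNA in the series. The wild-type animals were of the AEP strain. The treated animals were also AEP, but of the cnnos1::GFP transgenic line, and were epithelialized, that is, left mainly with epithelial cells. The cnnos1 promoter is known to drive GFP in interstitial stem cells. Treatment, cell content and transgenic line changed together, so their effects cannot be told apart. With 1 library a side there was no test between the conditions, and the folds below describe these 2 libraries. In bulk samples, fewer cells of a type and less RNA per cell cannot be told apart either. The mRNA samples of the series came from other animals, hywi knockdown polyps and their wild-type siblings. They were collected within days of hatching and are described further on.

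PIWI proteins carry short guide RNAs, called piRNAs, that direct the cutting and silencing of transposon RNA. A piRNA antisense to a transcript can pair with it, whereas a sense piRNA has the sequence of the transcript and can be a product of its cleavage. In the ping-pong cycle, PIWI partners loaded with opposite strands cut each other's precursors, and in Hydra Hywi is the partner that mostly holds antisense piRNAs while Hyli holds mostly sense ones. Hydra has epithelial lineages and an interstitial lineage that gives rise to nerve cells, stinging cells, gland cells and germ cells. Colchicine blocks microtubules and kills the dividing interstitial cells, and the epithelial animal survives when fed by hand. PIWI proteins are present in the stem cells of both kinds of lineage.

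Counts were scaled to counts per 1000000 of their own column (CPM), with antisense and sense columns kept apart. A transcript was a member on a strand when it reached 10 CPM there in at least 1 of the 2 libraries. Of 38747 transcripts, 6220 were antisense members and 7037 were sense members, 2055 of them on both strands, which makes 11202 in all. The antisense columns held 19.458 M counts (M for 1000000) in wild type and 16.6285 M in colchicine, and 10 CPM was 194.58 and 166.285 counts. The sense columns held 2.81125 M and 2.72239 M, and 10 CPM was 28.1125 and 27.2239 counts, so a sense value rests on far fewer reads than an antisense value of the same CPM. A value of at most 3 counts was treated as the floor, which was 0.154 and 0.180 CPM in the antisense columns and 1.07 and 1.1 CPM in the sense columns. Intervals and floors cover counting error only. Over all transcripts each Hywi antisense column was more like the other Hywi antisense column (Spearman rho 0.72) than like either Hyli antisense column (0.55 to 0.67). The sense columns matched in the same way (0.79 against 0.63 to 0.77), so the protein names of the columns were not contradicted. This does not check which column is wild type and which colchicine. Colchicine Hywi antisense had rho 0.628 with wild-type and 0.621 with colchicine Hyli antisense, and wild-type Hywi antisense had 0.668 and 0.552. The transcripts carry only their deposited names, with no gene or transposon name, and the cell types named in the labels could not be checked by markers.

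Among antisense members, 1630 were at least 4-fold higher in colchicine (26.2%), 1834 were at least 4-fold lower (29.5%) and 2756 lay between. These folds are on the scale of CPM with 1 CPM added, which understates the change of low transcripts. The 1630 higher transcripts held 4.68% of the antisense counts of wild type and 43.1% of those of colchicine. The 1834 lower transcripts went the other way, from 45.6% to 5.04%. The 2756 transcripts between held 48.6% and 50.1%. All these shares follow in part from how the classes are defined, so the near equality is not a separate result. CPM of a column sum to a constant, so a gain at some transcripts must be met by a loss at others.

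**Figure D1:**
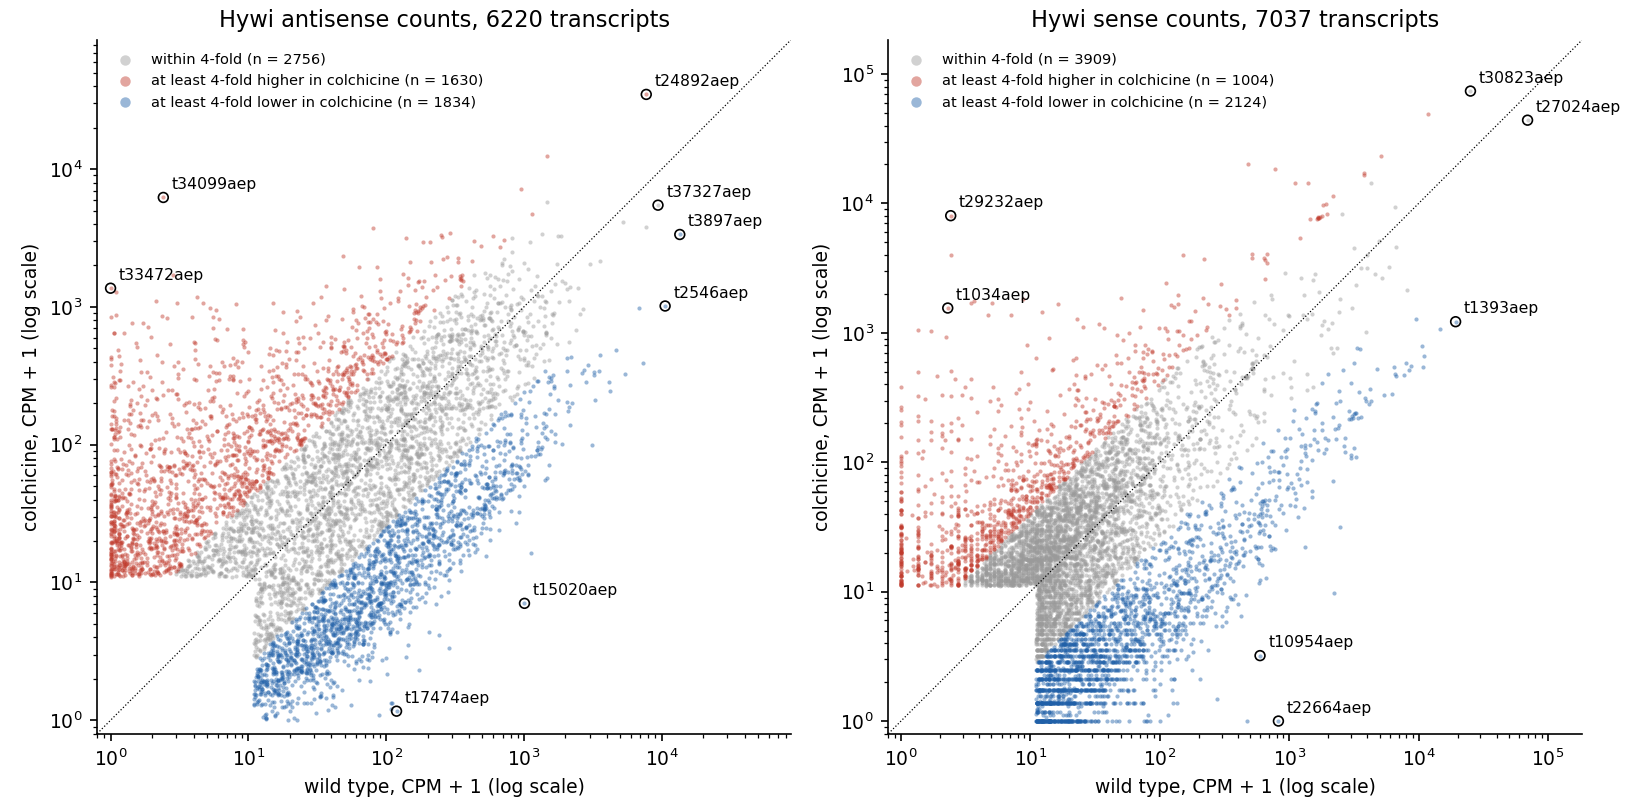
Hywi counts of each member in wild type (x axis) and colchicine (y axis), as CPM + 1 on log scales, for antisense (left) and sense counts (right); each point is a transcript, red and blue points differ by at least 4-fold and the dotted line marks equal values. Antisense points below the line lie in a band at a median of 79.2 CPM in wild type and 7.23 in colchicine, while points above it reach the left edge, where wild type had at most 3 counts for 203 transcripts.

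The lower and the higher antisense transcripts differed in how complete the change was. The lower ones kept a median of 8.89% of their wild-type CPM in colchicine (quartiles 6.05% and 14.1%), and 26 of 1834 kept under 1% (1.42%). For the higher ones, the wild-type CPM was a median of 6.12% of the colchicine CPM (quartiles 1.53% and 13.5%), and it was under 1% for 340 of 1630 (20.9%). At 16-fold or more, 589 transcripts were higher and 242 were lower, and at 32-fold or more 306 were higher and 25 were lower. With values under the floor raised to 3 counts and nothing added, these numbers were 826 and 501, and 594 and 111. At or under the floor lay 203 antisense members in wild type and 17 in colchicine. The lower transcripts seldom reached the floor in colchicine, and near absence was more frequent on the wild-type side. Over all transcripts, 36026 had antisense counts above 0 in colchicine and 30196 in wild type, although the wild-type column held more counts. The part of this column-wide difference in the contrast of the 2 classes was not tested.

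For antisense counts the split was similar at all levels of abundance. In 6 ranges of the larger CPM, from 10 to 20 up to at least 1000, the share within 4-fold was 41.9% to 46.9%. Members just inside the 10 CPM minimum were t15898aep, with 10.002 CPM in wild type and 1.99 in colchicine, and t36412aep, with 10.02 and 2.65. Just outside it were t30237aep, with 4.29 and 9.98 CPM, and t15497aep, with 8.30 and 9.9999 CPM.

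Of antisense members with at least 100 CPM in the higher library, the 5 highest ratios were at transcripts nearly without Hywi antisense counts in wild type. Transcript t33472aep was at 0 antisense counts in wild type against 22723 for colchicine (1367 CPM), which is at least 8863-fold higher against the floor of 3 counts. Transcript t20033aep had 2.03 and 21440 counts, a ratio of 12360 with a 95% counting interval from 3472 to 103587. Transcript t34099aep had 27.5 counts in wild type and 103619 in colchicine, a rise of 4403-fold (interval 2996 to 6517). In colchicine it ranked among the 5 transcripts with most antisense counts. The remaining 2 were t21106aep, with 1.94 and 14422 counts, and t15412aep, with 0.25 and 14054 counts. In the Hyli IP, a separate library of the same kinds of animal, the antisense levels of these 5 transcripts were 0 to 1.99 CPM in wild type and 64.7 to 637 CPM in colchicine. Their mRNA was at most 0.444 CPM in each of 6 whole-animal mRNA libraries described further on.

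The 5 lowest antisense ratios had the mirror pattern with a smaller range. Transcript t15020aep fell from 19639 antisense counts (1009 CPM) in wild type to 101 (6.06 CPM), which is 167-fold lower (interval 137 to 204). Transcript t17474aep had 2297 and 2.73 counts, a ratio of 720 for wild type over colchicine with an interval from 224 to 3175. For t34473aep, t28120aep and t4731aep, 2088 to 2140 counts in wild type stood against 3.57 to 5.61 in colchicine, which is 321-fold to 499.9-fold lower. Hyli antisense levels of these 5 were 16.9 to 80.1 CPM in wild type and 1.06 to 6.84 CPM in colchicine. Each of them had 112 to 1363 Hyli sense counts in the wild-type library and 0 in the colchicine library, where 0 counts allow up to 0.449 CPM.

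The transcripts with most antisense counts differed between the libraries, and only t24892aep was among the top 5 of both. It had 7733 CPM in wild type against 34884 CPM after colchicine, 4.51-fold higher (interval 4.49 to 4.54), and made up 3.49% of all Hywi antisense counts in colchicine. Its Hyli antisense level went in the opposite direction, from 35087 CPM in wild type down to 5761 CPM. Hardly any sense RNA was counted for it, with 3 and 4 Hywi sense counts and 19 and 0 Hyli sense counts.

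The top of the wild-type library was t3897aep, with 13542 CPM in wild type and 3355 in colchicine (4.04-fold lower). Next came t2546aep, with 10597 and 1015 CPM (10.4-fold lower). Apart from t24892aep, described above, the other members of the wild-type top 5 changed less. Transcript t37327aep had 9407 and 5478 CPM, and t37859aep had 7758 and 3821 CPM, 1.72-fold and 2.03-fold lower. In colchicine the top 5 also held t11400aep, with 1479 CPM in wild type and 12358 in colchicine, 8.36-fold higher. The same list had t15132aep, with 944 and 7219 CPM (7.64-fold higher), and t27046aep, with 1476 and 5757 CPM (3.90-fold higher).

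Abundant antisense targets that hardly moved were present too. Of those within 1.5-fold, the largest smaller CPM belonged to t30072aep, with 5222 CPM in wild type and 4104 in colchicine. It was followed by t24009aep, with 3007 and 2042 CPM, and t4831aep, with 1751 and 2042 CPM. Their Hyli sense levels, which are levels of the opposite strand, were 442 to 1335 CPM in the wild-type library and 1300.01 to 2874 CPM in the other. All 3 therefore had Hywi antisense and Hyli sense counts in both kinds of animal.

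Sense counts moved more to one side. Of 7037 sense members, 1004 exceeded 4-fold on the higher side in colchicine (14.3%), 2124 on the lower side (30.2%) and 3909 lay between. The 1004 higher transcripts held 7.31% of wild-type and 49.9% of colchicine sense counts, and the 2124 lower ones held 51.9% and 4.13%. The gain of share was thus spread over fewer transcripts than the loss. The sense counts also became more concentrated: 50% of them lay on 100 transcripts in wild type and on 43 in colchicine, against 402 and 383 for antisense counts. The 10 largest transcripts held 19.1% and 29.2% of sense counts, and 7.86% and 8.83% of antisense counts. Unlike antisense members, abundant sense members were less often within 4-fold, 25.3% of those at 1000 CPM or more against 63.7% of those at 10 to 20 CPM.

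**Figure D2:**
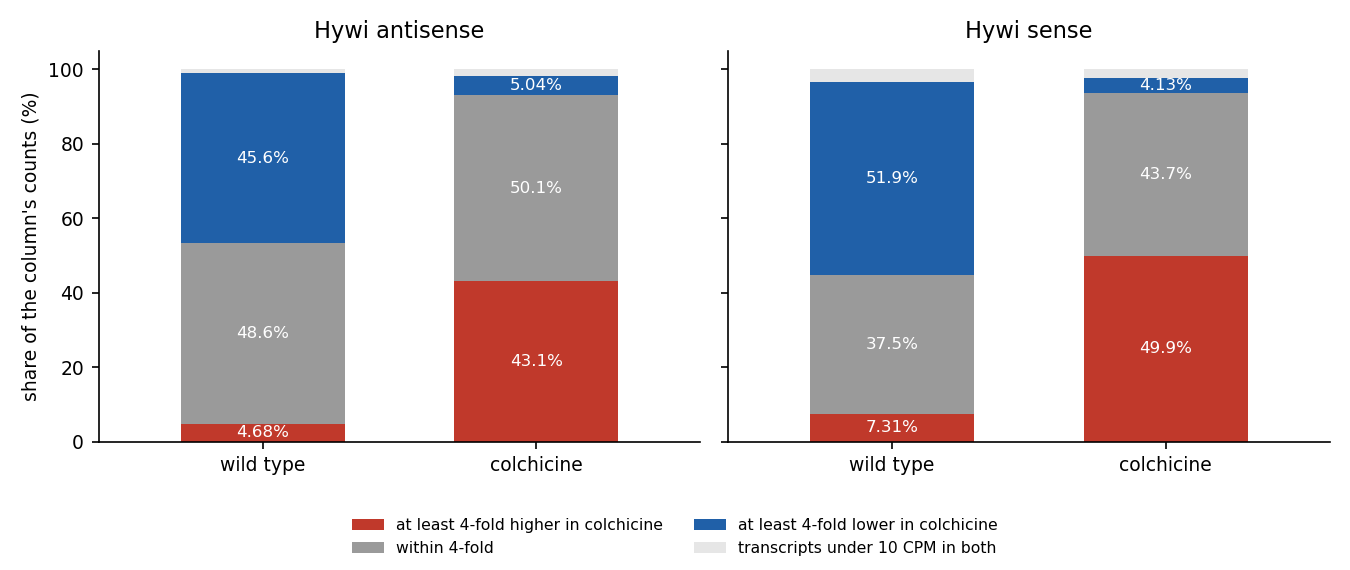
Share of all Hywi counts of a column (y axis, percent) held by members at least 4-fold higher, within 4-fold or at least 4-fold lower in colchicine, for antisense (left) and sense counts (right), with 1 library per bar. The higher classes grow from 4.68% to 43.1% (antisense) and from 7.31% to 49.9% (sense), which follows in part from how the classes are defined.

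The largest sense level in colchicine belonged to t30823aep, with 25161 CPM in wild type against 73821 CPM after colchicine (2.93-fold higher). Transcript t12446aep came next, with 11870 and 49154 CPM (4.14-fold higher). Both are abundant mRNAs with almost no Hywi antisense counts, at most 9.33 in either library. Their mRNA levels varied widely between mRNA libraries of one group, from 437 to 3963 CPM for t30823aep and from 130.2 to 1141 CPM for t12446aep. In wild type the largest sense level was that of t27024aep, with 69505 CPM against 43989 in colchicine, and t1393aep followed t30823aep with 19318 CPM against 1218 (15.9-fold lower).

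The highest sense ratios were at t29232aep, where 4 wild-type sense counts stood against 21884 (1.42 and 8038 CPM), and at t5835aep, with 4 and 10785 counts. Next was t1034aep, with 3.65 and 4230 counts. The lowest were at t22664aep, where wild type had 2318 counts and colchicine 0 (at least 748-fold lower), at t31279aep, with 1325 and 0 counts (at least 428-fold lower), and at t10954aep, with 1671 and 6 counts (270-fold lower). Sense members nearest to the 10 CPM minimum had few counts: t24741aep had 28.2 and 2.33 counts and t8121aep 28.2 and 1.33, both inside, while t9945aep with 28 and 2 counts and t11377aep with 14.7 and 27.2 counts were outside.

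The level of mRNA separated the sense members. The mRNA came from other animals, whole polyps of 10 per library collected 4 days after hatching: 3 libraries of hywi knockdown animals, which express a hywi hairpin transgene in epithelial stem cells, and 3 of wild-type siblings without it. Sense members with a mean of at least 10 mRNA CPM (3917 transcripts) held 38.8% of the wild-type and 67.8% of the colchicine Hywi sense counts. Those with 1 to 10 mRNA CPM (1692) held 36.2% and 20.7%, and those under 1 mRNA CPM (1428) held 21.7% and 9.28%. The share lower by at least 4-fold was 10.4%, 51.7% and 59.0% in the same order, against 30.2% of all sense members. The share higher by at least 4-fold was 12.7%, 13.4% and 19.7%, against 14.3%, so members with little mRNA were more often past 4-fold in both directions. In colchicine, then, the sense RNA in the Hywi IP fell more on transcripts with abundant mRNA and less on those with little mRNA. Part of this share lay on single transcripts: t30823aep went from 2.52% to 7.38% of the sense counts and t12446aep from 1.19% to 4.92%. The share without the largest transcripts was not computed. For antisense members the share lower by at least 4-fold was 27.8%, 28.7% and 30.1% in these 3 groups, and the share higher was 30.9%, 18.4% and 30.2%. Over all 38747 transcripts, the library medians of mRNA were 0.284 to 0.475 CPM and 55.5% of transcripts were under 1 CPM in all 6 libraries. Transcripts that were antisense members only were close to this, with medians of 0.312 to 0.531 CPM and 63.8% under 1 CPM. For transcripts that were sense members only, these values were 33.8 to 45.1 CPM and 11.9%.

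Over all counts the antisense share of Hywi was 87.4% in wild type and 85.9% in colchicine. This difference of 1 library against 1 varied with the transcripts counted. It was -0.316 points without the 10 largest transcripts of each column and -1.57 points over members. Over the 2939 transcripts with whole-number counts in all 4 columns the share went from 59.9% to 66.3%. Most antisense values are fractions and most sense values are not, so that subset leaves out antisense counts above all. Single transcripts mostly kept their strand. Among 5458 transcripts with at least 100 Hywi counts in both libraries, the median antisense share was 98.8% in wild type and 99.6% in colchicine, and 87.9% moved by under 10 points. A rise by at least 50 points was seen for 92 transcripts and a fall for 27.

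**Figure D3:**
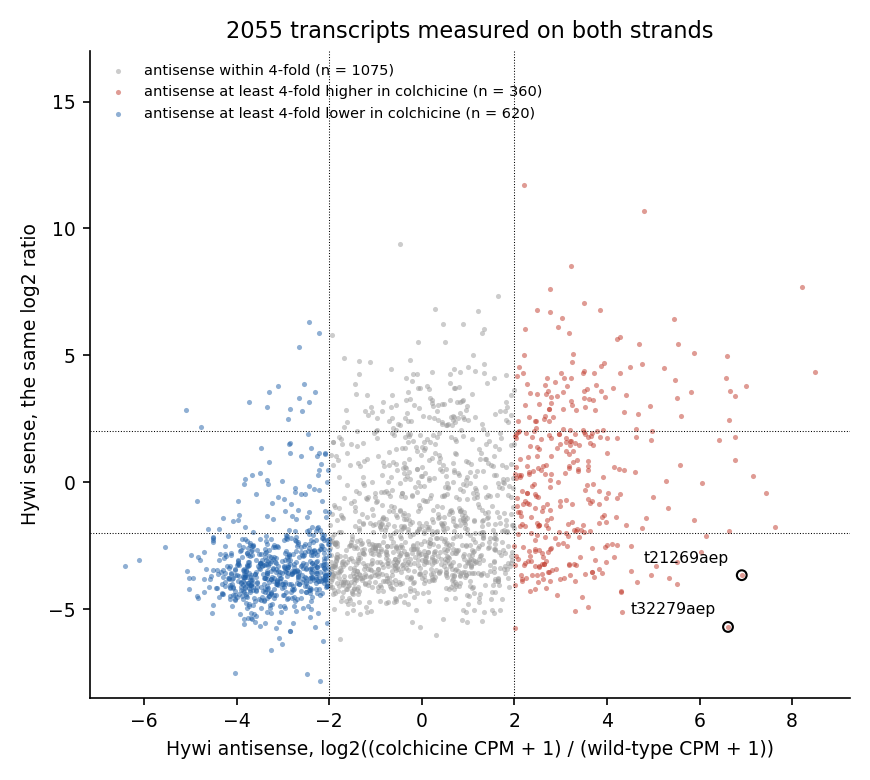
Antisense (x axis) against sense (y axis) log2 ratio of colchicine over wild type for the 2055 transcripts that were members on both strands, coloured by their antisense class, with dotted lines at 4-fold. Of the 620 transcripts lower on the antisense strand, 537 were also lower on the sense strand (86.6%). The 360 higher on the antisense strand were 101 higher (28.1%), 160 within and 99 lower (27.5%) on the sense strand. Over all 2055, 11.8% were higher and 59.1% lower on the sense strand.

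The strands fell together more often than they rose together. Of 620 transcripts on both strands with antisense counts at least 4-fold lower, 537 had sense counts at least 4-fold lower as well (86.6%), against 1215 of all 2055 (59.1%). Of 360 with higher antisense counts, 101 had higher sense counts (28.1%) and 99 had lower ones (27.5%), against 11.8% and 59.1% of all 2055. Sense counts were also at least 4-fold lower for 579 of the 1075 transcripts whose antisense counts stayed within 4-fold (53.9%). Both ratios come from the same 2 IPs, so they are not separate measurements of the animals.

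The strand ratios differed most at t32279aep and t21269aep. Transcript t32279aep had 6.37 antisense and 198 sense counts in wild type, and 2147 antisense counts and 1 sense count in colchicine. Transcript t21269aep had 26.6 antisense and 282 sense counts in wild type, and 4727 and 19 in colchicine. Both went from a Hywi strand share of at most 10% antisense to one of at least 90%, as did 11 of the 5458 transcripts, and 2 went the other way. The mRNA of t21269aep was abundant, at 110 to 617 CPM, whereas that of t32279aep was at most 0.765 CPM.

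The Hyli IPs, made from the same kinds of animal with another antibody, gave readouts that the choice of these transcripts had not used. They share the animals' treatment and line with the Hywi libraries, and each is also 1 library a side. In all, 7615 transcripts reached 10 CPM in Hyli antisense counts, of which 29% were raised by at least 4-fold in colchicine and 18.7% were lowered as much, with a median log2 ratio of 0.48. Of the 1630 transcripts higher in Hywi antisense, 1113 could be measured there, and 752 were at least 4-fold higher (67.6%) and 18 lower (1.62%), with a median log2 ratio of 2.67. Of the 1834 lower ones, 1048 could be measured, and 534 were at least 4-fold lower (51.0%) and 14 higher (1.34%), with a median of -2.02. The Hywi antisense change was thus met by a change of the same direction in Hyli antisense counts. Whether Hyli antisense counts hold some Hywi-bound RNA was not tested.

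**Figure D4:**
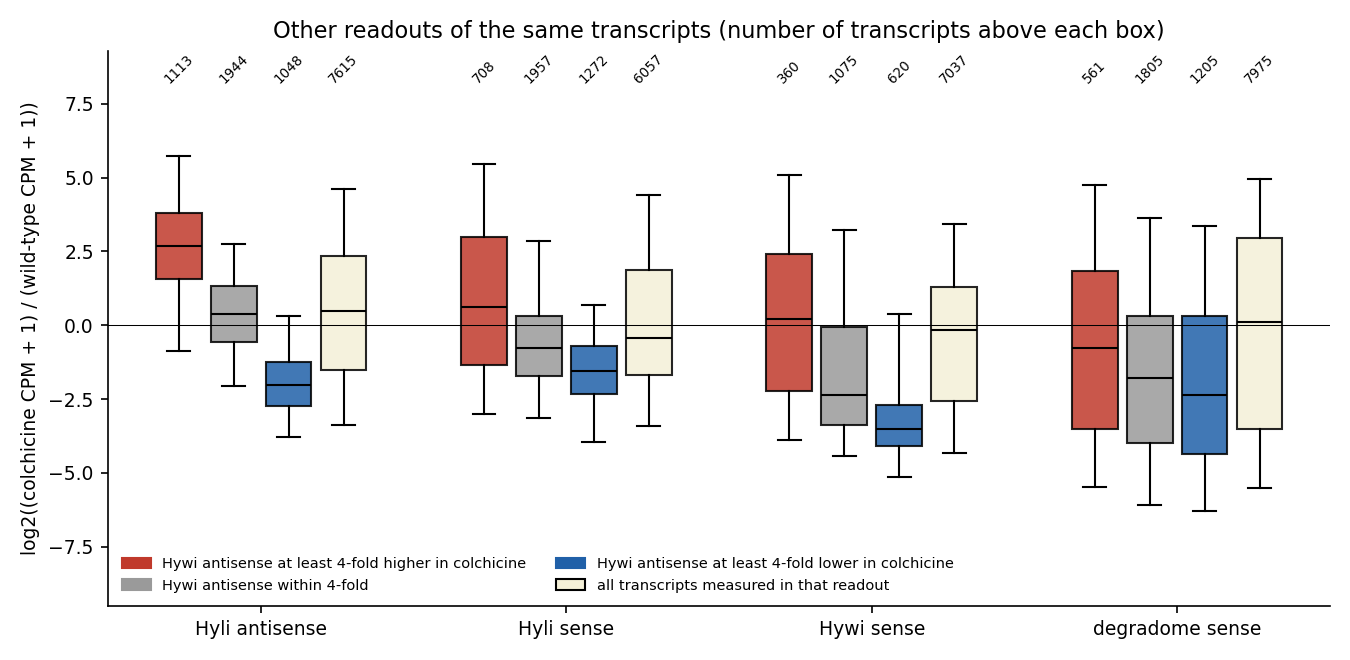
Log2 ratio of colchicine over wild type (y axis) in 4 other readouts for the 3 Hywi antisense classes and for all transcripts measured in that readout; boxes give the quartiles and median, whiskers the 5th and 95th percentiles, and the number of transcripts stands above each box. Hyli antisense medians run from 2.67 for the higher class to -2.02 for the lower class, and the same order of the classes is seen in the other 3 readouts at this minimum of 10 CPM.

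Hyli sense counts, the expected ping-pong partner strand, followed the same order over a narrower range. Over 6057 transcripts, 23.8% lay 4-fold or more above wild type and 19.4% as far below, with a median log2 ratio of -0.43. The median was 0.61 for 708 transcripts higher in Hywi antisense, with 34.2% higher and 14.7% lower. It was -1.54 for 1272 transcripts lower in Hywi antisense, with 1.42% higher and 33.8% lower. By share of the library, the class higher in Hywi antisense made up 9.80% of the wild-type and 23.5% of the colchicine Hyli sense counts, and the lower class held 29.1% and 13.7%.

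The degradome, a sequencing of capless 5-prime ends such as those of cleavage products, was measured in 20 animals a side. The median log2 ratio there was -0.78, -1.80 and -2.37 for the higher, within and lower Hywi antisense classes, against 0.11 for all 7975 transcripts measured. The summed counts moved the other way: the share of the degradome went from 5.399% in wild type to 9.15% in colchicine for the higher class, from 28.5% to 45.1% for the class within 4-fold and from 15.9% to 20.7% for the lower class. The typical transcript of each class thus had a lower share in colchicine while the class as a whole had a larger one, so no direction is given for the classes. At least 4-fold lower were 39.2%, 47.6% and 53.2% of the classes, against 33.6% of all, and at least 4-fold higher were 11.95% to 23.4% of them, against 33.3% of all. The colchicine degradome held 176897 counts against 765341 in wild type, and 10 CPM was 1.77 counts there, so many of its values rest on a few reads and the part of this depth in the result was not tested.

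The hywi knockdown asked whether mRNA of Hywi targets rises when hywi is reduced in epithelial cells. The median log2 difference (knockdown over wild-type siblings) was 0.19 for 879 tested transcripts higher in Hywi antisense in colchicine, 0.24 for 1945 within 4-fold and 0.22 for 1170 lower, against 0.02 for all 19683 tested. Without wild-type sibling 3 the medians of the classes were 0.12, 0.14 and 0.14, and without knockdown 1 that of the higher class was 0.11. With all libraries, 72.1%, 83.3% and 82.3% of the transcripts in these classes lay above 0, against 53.0% of all. Sense members, some of which are also antisense members, had medians of 0.12 (higher), 0.008 (within) and 0.18 (lower). In these sense classes 72.8%, 51.6% and 71.9% lay above 0. Whether the shift goes with the level of mRNA was not tested. Per library, the median deviation of the 3994 tested antisense members was 0.04, -0.06 and -0.27 in wild-type siblings 1 to 3, and 0.22, 0.02 and 0.12 in the knockdown. The groups overlapped, since knockdown 2 lay below wild-type sibling 1. Within pairs of the same number, the knockdown was higher by 0.18, 0.08 and 0.38.

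**Figure D5:**
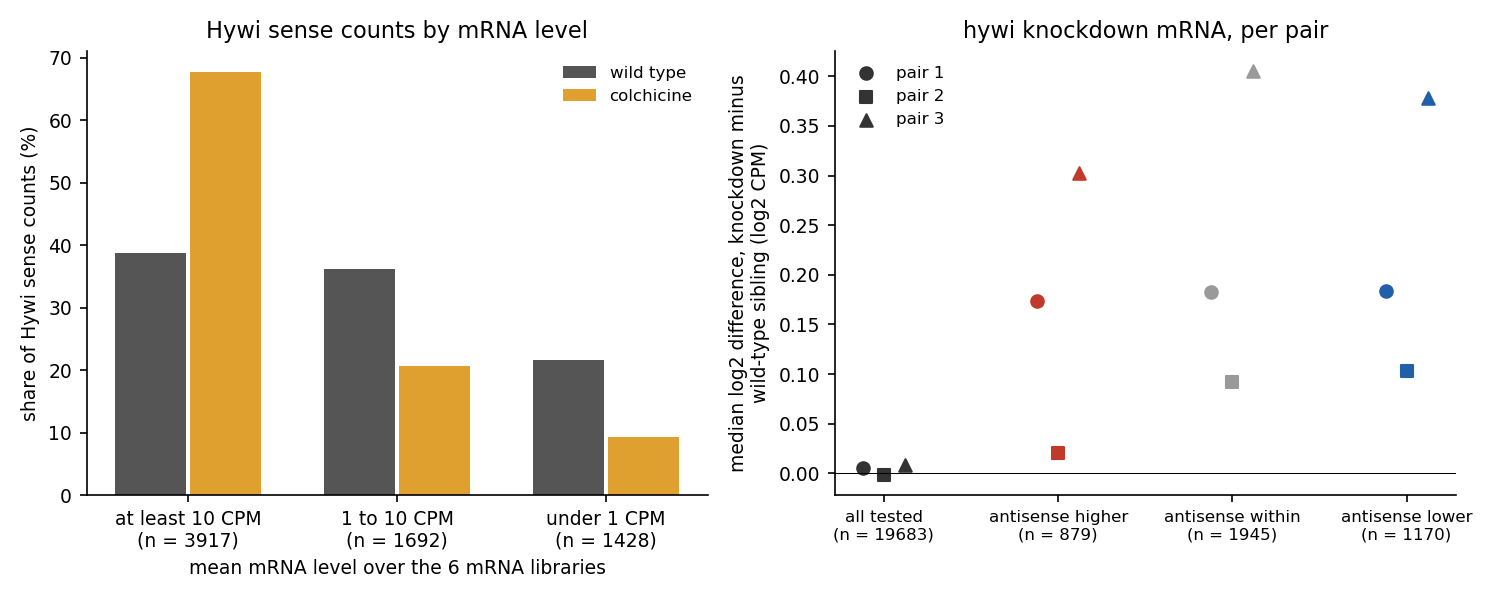
Left, share of Hywi sense counts (y axis, percent) in wild type and colchicine held by sense members with a mean mRNA level of at least 10, 1 to 10 or under 1 CPM; the first group grows from 38.8% to 67.8%. Right, median mRNA difference between hywi knockdown and wild-type sibling of the same number (log2 CPM) for all tested transcripts and for the 3 Hywi antisense classes, 1 point per pair; every class point lies above 0.

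Few single transcripts passed without the pairing in the model. In the quasi-likelihood test of edgeR, adjusted after Benjamini and Hochberg, 0 of 19683 transcripts passed a threshold of 0.05 in either direction (0% and 0%). At an unadjusted p under 0.05, 577 of all 19683 were higher and 141 lower. Of the 3994 antisense members tested, 246 were higher and 5 lower at this unadjusted threshold. DESeq2 called 2 higher and 1 lower, of which t6295aep was an antisense member. With the replicate number as a block, 231 transcripts rose (1.17%) and 18 fell (0.0914%). Of 3994 antisense members, 45 rose (1.13%) and 0 fell in that fit, which is close to the share of all tested. They were 8 of 879 in the class higher in colchicine (0.91%), 20 of 1945 within 4-fold (1.03%) and 17 of 1170 in the lower class (1.45%). Without pair 2, the blocked fit called 85 antisense members higher (2.07%) and 18 lower (0.439%), against 1.79% and 0.527% of all tested. The count of members called thus rests on the libraries used. Differences between the class shares were not tested.

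The 2 rising antisense members with most Hywi antisense counts were t4831aep and t25651aep. Transcript t4831aep, one of the stable targets above, had 8.90, 3.85 and 2.85 mRNA CPM in wild-type siblings and 41.1, 15.8 and 6.33 in the knockdown. Each knockdown library was above the sibling library of the same number, but the groups overlapped. That pairing was chosen from these same mRNA data, and the p-values of the blocked fit rest on it. The blocked edgeR fit gave it a log2 fold change of 1.81 (standard error 0.18, adjusted p = 4.4e-04), and without the block its adjusted p was 0.875. Transcript t25651aep had 999 and 2080 Hywi antisense CPM in wild type and colchicine. Its mRNA was 8.23, 4.57 and 5.34 CPM in siblings and 14.7, 9.54 and 8.54 CPM in the knockdown, which is higher in every knockdown library than in every sibling. Here the blocked edgeR fit gave a log2 fold change of 0.77 (standard error 0.13, adjusted p = 0.0123), and the adjusted p without the block was again 0.875.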

How the data were processed

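Small RNA of the Hywi IPs came as estimated counts per transcript, deposited by the authors as raw values with antisense and sense mapping in separate columns, per the file headers. Many are fractions: 89.2% and 94.8% of the antisense values above 0 in wild type and colchicine were not whole, and 15.8% and 15.3% of the sense values, the form that results when a multi-mapping read is divided between transcripts. Of antisense members, 82 of 6220 were whole in both libraries, so antisense values of similar transcripts are not independent. Hyli, degradome and mRNA tables held estimated counts as well. The submitters' processing notes name cutadapt and Trimmomatic 0.33 for some samples, and Bowtie 1.1.2 and RSEM 1.2.31, without their settings. IP libraries were size-selected and amplified by PCR, per the labels' protocols.

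Counts were divided by the column total (CPM) and compared as log2 ratios with 1 CPM added, for transcripts that reached 10 CPM in 1 library or both (scipy 1.17.1, pandas 2.3.3 and numpy 2.4.6 under Python 3.11.15, plots with matplotlib 3.10.9). Intervals of ratios are exact (Clopper-Pearson) on rounded counts, at 95%. A fold against 0 counts is a bound, taken against 3 counts, and against 1 to 3 counts the ratio is given with its interval. Named antisense transcripts were the 5 highest and 5 lowest ratios with at least 100 CPM in the higher library, the 5 with most CPM in each library and the 3 most abundant within 1.5-fold. Named sense transcripts were the 3 highest, the 3 lowest and the 3 with most CPM in each library. Added were the 2 with the most different strand ratios and the 2 per direction with most Hywi antisense CPM that passed in the mRNA fit. Members, classes and lists were chosen with earlier results of these data known. Of the transcript names, 0 matched the reference gene table, so the hywi transcript was not analysed here.

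The mRNA counts were rounded, filtered (filterByExpr), scaled by TMM and tested two-sided with edgeR 4.0.16 (R 4.3.3) and Benjamini-Hochberg adjustment at 0.05. DESeq2 1.42.0 was an alternative. Nothing says that replicates of a group were separate cultures, so p-values measure the spread between these libraries. Same-numbered libraries deviated from their group means together (correlations 0.62, 0.27 and 0.30, against -0.43 to 0.20 for other pairs), and on this ground alone the number was used as the pairing. The ratios and the edgeR fits were run on simulated counts with large planted changes and no pair effect. This checked the code, and not whether shifts of the size seen here can be found.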

Additional observations from a re-analysis of the deposited data

How the results depend on the processing

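With 1 library a side, no alternative measures the spread between animals, and depth limits the sense and degradome values most. For antisense members, the 9 other settings gave 0 to 98 sign changes among shared members, and 0 changed from 4-fold higher to 4-fold lower or back. The antisense counts, 1630 higher and 1834 lower, became 979 and 1153 at a minimum of 50 CPM, 956 and 1078 with 10 CPM added, and 19 and 39 among the 82 transcripts with whole counts. That last setting moved the higher share of calls from 47.1% to 32.8%. The larger side is not fixed: it was the higher one, 1741 against 1711, when scaled by the median ratio, and 2191 against 2075 when the minimum was 1 CPM. These settings moved the median log2 ratio of all antisense members from -0.10 to 0.09 and 0.63. The sense counts, 1004 and 2124, became 1300 and 3348 at 1 CPM, 523 and 857 at 50 CPM, 452 and 913 with 10 CPM added, and 432 and 607 with both strands in the library total. The larger side stayed the same in all sense settings. Named transcripts kept the sign of their log2 ratio in every setting that could be computed.

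The antisense share of Hywi changed by -1.44 points (colchicine minus wild type), by -0.316 without the 10 largest transcripts of each column, by -1.57 over members and by 6.42 among transcripts with whole counts. The next settings were chosen after seeing the data, and 2 of the 12 class medians changed sign: the Hyli antisense median of the class within 4-fold, 0.38, was -0.29 under median-ratio scaling, and the Hywi sense median of the higher class, 0.21, was -0.24 at 1 CPM. The Hyli antisense median of the higher class was 2.01 at 1 CPM, 3.06 at 50 CPM and 2.16 under median-ratio scaling, and that of the lower class -1.58, -2.30 and -2.51. The Hyli sense median was 1.07 for the higher class under median-ratio scaling, and -1.39 at 50 CPM and -1.12 under median-ratio scaling for the lower class. The degradome median was -1.85 for the higher class under median-ratio scaling, and -1.37 at 50 CPM and -3.10 under median-ratio scaling for the lower class. For the class within 4-fold, the Hyli antisense median was 0.55 at 50 CPM. Its Hyli sense median was -0.27 at 1 CPM, -0.69 at 50 CPM and -0.33 under median-ratio scaling, and its degradome median -1.21, -1.41 and -2.47. At 50 CPM the degradome medians of the within and lower classes were thus not in the order given in the report. The Hywi sense median was -0.88 at 1 CPM and -2.63 at 50 CPM for the class within 4-fold, and -2.33 and -3.98 for the lower class. The share of sense counts on transcripts with abundant mRNA rose by 29.0 points, and by 24.2 and 29.3 points with a minimum of 5 and 20 mRNA CPM. The cause of these shifts was not tested.

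In the knockdown, the fit without the block called 0 antisense and 0 sense members. The replicate block called 45 antisense members higher (1.13%) and 0 lower, and 118 (1.87%) and 6 (0.0953%) sense members. Of all tested, 1.17% and 0.0914% were called. DESeq2 called 1 antisense member higher, and 1 higher and 1 lower sense member. Leaving out 1 library at a time without the block called 0 to 0 in each direction. With the block and 1 pair left out, a fit chosen after seeing the data, the counts were 37, 85 and 49 higher and 3, 18 and 1 lower for antisense members without pairs 1, 2 and 3, and 106, 159 and 159 higher and 4, 45 and 29 lower for sense members. RLE scaling and no filter gave 0 calls.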

Other observations

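The 203 antisense members with at most 3 Hywi antisense counts in wild type had a median of 29.2 CPM in colchicine and held 1.73% of its antisense counts. In Hyli antisense counts their median was 0.306 CPM in wild type against 6.27 CPM after colchicine, and 192 of the 203 were higher in colchicine (94.6%), against 1299 of the other 1427 antisense members at least 4-fold higher (91.0%). Of these 203 transcripts, 146 (71.9%) were under 1 mRNA CPM in all 6 mRNA libraries, against 61.2% of all antisense members at least 4-fold higher and 55.5% of all transcripts. On the other side, 17 antisense members had at most 3 counts in colchicine, with a median of 14.7 CPM in wild type, and 0 of the 17 were higher in colchicine in Hyli antisense counts. These sets were all chosen by the direction of their Hywi antisense counts. The share of all antisense members higher in Hyli antisense was not counted, so these Hyli shares are description only.

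Among transcripts whose Hywi strand turned over, chosen after their values were seen, t37905aep had the most counts. It had 2572 antisense and 29633 sense counts in wild type, and 28994 antisense and 2170 sense counts in colchicine, so its antisense share went from 7.99% to 93.0%. Transcript t31800aep went from 3.84% to 94.0% antisense. In the opposite direction, t1034aep went from 98.5% to 3.19% antisense, with 234 and 140 antisense counts, and t9903aep from 98.7% to 6.91%.

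The sense members within 4-fold had library medians of 36.8 to 47.8 mRNA CPM, the higher ones 7.21 to 11.2 and the lower ones 1.24 to 2.13. In Hyli sense counts, the 419 measured transcripts higher in Hywi sense had a median log2 ratio of 2.40, and the 1160 lower ones had -1.36. The 1516 measured within 4-fold were also raised, with a median of 1.44, and the median of all 3095 measured sense members was 0.13.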
